A study of Mus musculus with 4 samples.

Results

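NIC isoforms are full-length cDNA models whose splice donors and acceptors are all annotated, but whose set of junctions matches no transcript of the annotation. The abbreviation is that of SQANTI3, the classifier the authors ran. The members were the rows of the isoform table named as NIC that have at least 2 exons, and they numbered 5839 of 68012 isoforms, from 2614 genes. Isoforms were read with HIT-scISOseq, which sequences whole cDNA of single cells on the PacBio platform and counts molecules by UMI (unique molecular identifier). The labels give the strain as DBA/2J x C57BL/6J for every sample, while the methods of the study name the males as DBA/2NCrl. The females were C57BL/6J, 6 to 8 weeks old, and received PMSG and then hCG, the gonadotropins that drive superovulation. After hCG, MII oocytes (unmated females) were taken at 20 h, zygotes at 22 to 24 h, early 2-cell embryos (E2C) at 30 to 32 h and late 2-cell embryos (L2C) at 46 to 48 h. The 4-cell embryos were taken at 54 to 56 h, the 8-cell embryos at 68 to 70 h, the 16-cell and 32-cell embryos at 78 to 80 h and the blastocysts at 88 to 90 h. mESC were cells of the single embryonic stem cell line E14. The column names tie 121 of the 161 cells to 43 oocytes, zygotes and embryos (10 oocytes and 9 zygotes, then 5 embryos at E2C, 6 at L2C, 5 at 4-cell, 4 at 8-cell and 4 at 16-cell), and these were the replicates. The 22 cells of 32-cell embryos, 13 blastocyst cells and 5 mESC name no embryo and are given as range and median. A further batch of split oocytes was not analysed here.

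A pre-mRNA is spliced by joining a donor at the end of one exon to an acceptor at the start of another. A new combination of known sites can arise when an exon is passed over, when an intron stays in the mRNA, or when a known first or last exon is joined to a set of exons with which it is not annotated. Oocytes store spliced mRNA made during growth, most of it is cleared by the 2-cell stage, and the embryo then transcribes its own genome, so the isoforms of a gene can be replaced along with the gene's mRNA.

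Cells held between 3385 and 248254 UMIs, with medians of 131505.5 in oocytes, 161196 in zygotes and 29552 over all cells, so shares were taken after thinning each cell to 3000 UMIs. The oocyte markers Zp3, Gdf9, Bmp15, Oosp1, H1foo and Mos (6 of 6 in the table) summed to 3096 to 4259 copies per 100,000 UMIs in oocytes, 25.1 to 207 in 8-cell embryos and 15.4 to 367 in 16-cell embryos. Single cells had sums of 6.29 to 52.9 in 32-cell embryos, 164 to 450 in blastocysts and 87.4 to 184 in mESC. The late 2-cell markers Zscan4c, Zscan4d, Zfp352 and Tcstv3 had a median sum of 12.7 copies in E2C and 4.76 in L2C embryos, and both ranges overlapped. Of 9 markers of cumulus and granulosa cells, 6 were in the table and summed to at most 9.81 copies in any oocyte, while Amh, Foxl2 and Ptx3 had no row. The 16-cell embryos stood apart from each other: embryo 2 had an oocyte marker sum of 15.4 and the other 3 had 234 to 367, and incomplete splice match (ISM) isoforms, whose junctions are a run of an annotated chain that lacks one end, held 15.6%, 20.4%, 8.44% and 8.63% of UMIs in embryos 1 to 4. L2C embryo 1 is a single cell in which 8.08 copies per 100,000 is the value of 1 UMI, so its levels of 8.08 below rest on 1 molecule.

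The sequences printed here show what makes such an isoform at the base level. They are mm10 sequence read 5′ to 3′ from the GENCODE vM21 transcripts, 15 bases on each side. In the first 3 lines capitals mark the first bases of the exon on the acceptor side of a junction that pairs a known donor with a known acceptor for which vM21 has no such pair. In the last 2 lines capitals mark the 15 bases that follow the end of an annotated exon in the NIC isoform. For Oaz1 the first 4 of them are the kept bases, and the rest belong to the next annotated exon.
Hpf1 PB.71683.4, intron chr8:60890537-60903999, + strand: ggggcgggaccgcagGTTGTGACAAAGACT
Mpc1 PB.31638.6, intron chr17:8283962-8296534, + strand: ggactatctcatgagCACTTCTGGGGCCCA
Gm28784 PB.387.3, intron chr1:17168526-17171794, + strand: cagcaatgtggaagaGGCTTTGATCTTTTC
Oaz1 PB.7836.1, bases kept chr10:80828292-80828295, + strand: gggcctcggtggtgcTCCTGATGTCCCTCA
Hspa8 PB.75373.287, intron kept chr9:40804364-40804462, + strand: tcaccaatgacaaggGTAAGTATGGACCTG
The kept intron of Hspa8 begins with the GT of a regular donor, and the kept bases of Oaz1 do not.

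**Figure D1:**
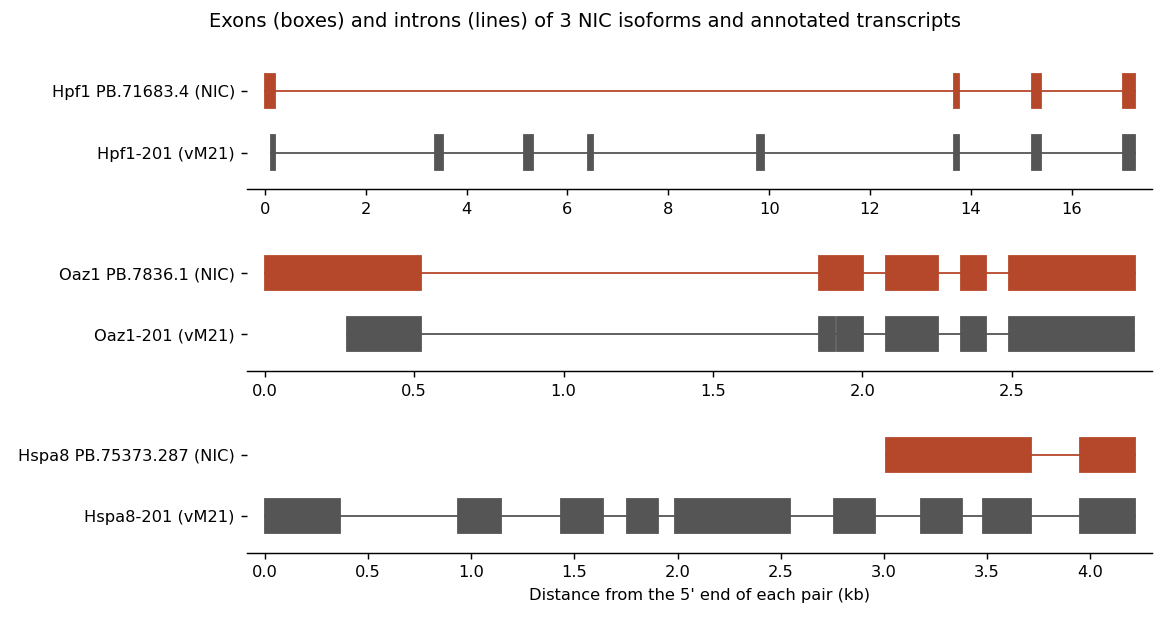
Exons (boxes) and introns (lines) of 3 NIC isoforms (red) above the vM21 transcript with which each is compared (grey), drawn to scale against the distance from the 5′ end of each pair in kb. Hpf1 PB.71683.4 runs past 4 internal exons of Hpf1-201, and Oaz1 PB.7836.1 reads through the gap of 4 bases in Oaz1-201. Another vM21 transcript of Hpf1, not drawn here, is closer to PB.71683.4 by junctions and joins the same donor past 5 exons. Hspa8 PB.75373.287 holds an intron of the annotated transcript as exon and starts within the intron before it.

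NIC isoforms made up 8.76% of the 66652 multi-exon isoforms and 4.39% of their UMIs (275721 UMIs). Full splice match (FSM) isoforms, whose junctions equal an annotated chain, made up 27.4% of isoforms and 74.4% of UMIs, so a NIC isoform was on the whole rarer: the median was 11 UMIs for NIC and 23 for FSM isoforms. The other classes were as rare, with a median of 12 UMIs for ISM isoforms and 10 for isoforms with an unannotated splice site (NNC). The authors kept isoforms seen in at least 5 cells, and 1010 NIC isoforms (17.3%) were seen in exactly 5, against 8.95% of FSM, 13.8% of ISM and 20.3% of NNC isoforms. The most abundant member, E330034G19Rik PB.22845.15, had 24252 UMIs. The median NIC isoform had 6 exons (interquartile range 4 to 9, at most 31) and 1338 bases (971 to 1835, from 224 to 5237), while FSM isoforms had a median of 5 exons and 1466.5 bases, and NNC isoforms 5 exons and 1143 bases.

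Checked against vM21, 3564 NIC isoforms (61.0%) used annotated junctions only and were new as a chain, and 2274 (38.9%) held a donor and an acceptor that vM21 does not pair, 2242 of them exactly 1 such pair. One isoform had a site that vM21 does not list, and 84 had a chain equal to a vM21 transcript. The authors' annotation was another release, so these 84 were kept as the table names them. Most members, 94.2%, belonged to protein-coding genes, and 5261 belonged to genes that also had a multi-exon FSM isoform.

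By comparison with the FSM isoforms of its gene, each NIC isoform was called intron-retaining (an exon holds a whole FSM intron), exon-skipping (an intron holds a whole internal FSM exon), both, or neither. Exon skipping was the more common of these: 2383 isoforms only skipped, 789 only retained, 88 did both and 2579 did neither. The kinds differed in where the new combination came from. A new pairing of sites was present in 71.6% of isoforms that skip an exon but in 3.53% of those that retain an intron, and 95.3% of the isoforms that only retain used no junction that was not also in an FSM isoform of the gene. Of the 2579 that did neither, 1140 (44.2%) held exactly 1 junction absent from the closest vM21 transcript, their first. In 484 it was the last and in 381 an internal one. Junctions of that transcript that an isoform lacked were not counted in this sorting. By UMIs, 54.3% of NIC UMIs were in isoforms that did neither, 25.6% in exon-skipping and 18.5% in intron-retaining isoforms.

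The 852 distinct introns retained were short, with a median of 185 bases (interquartile range 93 to 349.25) against 537.5 bases for the 3594 other introns of the same genes' FSM isoforms. They were the last intron in 7.04% of cases, against 13.6% of the other introns. Of the isoforms that retain, 678 of 877 kept a single intron. The 2252 skipped exons had a median of 108 bases, beside 110 for 6093 other internal exons of the same genes. A length that is a multiple of 3, which keeps the reading frame when the exon is left out, was found in 37.7% of skipped and 38.2% of other exons.

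NIC isoforms were spread thinly over genes: 1377 genes had 1, and 48 genes had at least 10. Accsl, an ACC synthase-like gene, had the most with 56, which held 29.7% of the gene's multi-exon UMIs. Kif23, a kinesin of the mitotic midzone, had 42, which held 53.0%. Nexn, an actin-binding protein gene, had 36 and Gas5, a noncoding host of snoRNAs, had 35. In Gas5 the NIC share of the gene's UMIs was 56.6% in L2C embryos and between 14.5% and 27.7% at the other stages to 16-cell. Med27, a subunit of the Mediator complex, had 20, as did Fbxw27, and its NIC share was 79.3% in oocytes and 16.8% in L2C embryos. A single NIC isoform held more than 50% of the UMIs of its gene in 208 genes, of which 134 had no multi-exon FSM isoform in the table.

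The share of multi-exon UMIs in NIC isoforms was higher in oocytes and zygotes than in later embryos. At equal UMIs per cell it was 5.39% ± 0.26 (SD, n = 19, 4.90 to 5.92) in oocytes and zygotes and 4.00% ± 0.76 (n = 24, 3.14 to 5.50) in E2C to 16-cell embryos (permutation test, two-sided, 100000 resamples, p = 2.0e-05, the lowest value they allow; adjusted over 5 measures, p = 5e-05). The means were 5.27% in oocytes, 5.52% in zygotes, 5.06% in E2C, 4.20% in L2C, 3.66% in 4-cell, 3.38% in 8-cell and 3.40% in 16-cell embryos. The decline was gradual, and none of the 6 steps between neighbouring stages passed by the exact permutation test (lowest adjusted p = 0.069). In E2C the 5 embryos were at 5.42%, 4.58%, 4.67%, 5.50% and 5.11%. In L2C the 6 embryos were at 4.71%, 3.52%, 4.94%, 4.87%, 4.02% and 3.14%, so they spanned the levels of E2C and of the 4-cell embryos (3.44% to 3.93%). Single cells of 32-cell embryos had a median of 3.36% (2.71 to 5.15), blastocyst cells 3.24% (2.80 to 5.11) and mESC 2.35% (2.24 to 2.89). A higher share early than late was not particular to NIC isoforms. The share in NNC isoforms was 5.46% to 6.97% in oocytes and zygotes and 4.97% to 7.47% in L2C embryos. It was 3.83% to 4.13% in 8-cell and 2.19% to 3.56% in 16-cell embryos.

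**Figure D2:**
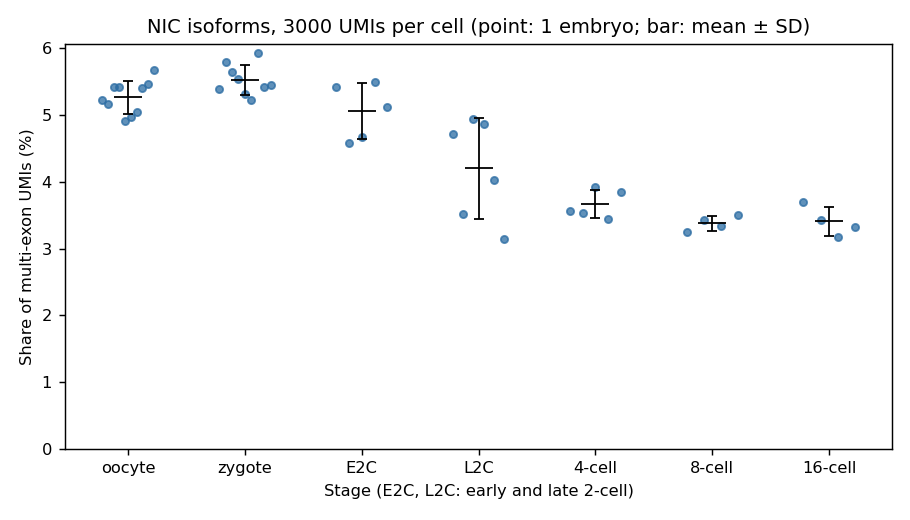
Share of multi-exon UMIs in NIC isoforms (%, y axis from 0) at 3000 UMIs per cell, by stage; each point is an oocyte, zygote or embryo (mean of its cells) and the bars are mean ± SD. Oocytes and zygotes lie between 4.90% and 5.92%, and 8-cell and 16-cell embryos between 3.17% and 3.70%.

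The number of NIC isoforms with a UMI in a cell thinned to 3000 UMIs was 97.2 ± 6.5 (n = 19) in oocytes and zygotes and 85.1 ± 12.1 (n = 24) later (permutation test, p = 0.00036), and NIC isoforms were 6.50% and 5.32% of the multi-exon isoforms detected. Within genes that have both a NIC and another multi-exon isoform (2508 genes), NIC isoforms held 7.88% ± 0.41 of UMIs in oocytes and zygotes and 6.42% ± 1.27 later (permutation test, p = 8e-05). Here the means were 7.68% in oocytes, 8.11% in zygotes, 7.80% in E2C, 7.17% in L2C, 6.08% in 4-cell, 5.17% in 8-cell and 5.26% in 16-cell embryos. The steps from oocyte to zygote and from 4-cell to 8-cell passed (exact permutation test, adjusted p = 0.0476 for both), and the 4-cell and 8-cell embryos did not overlap (5.61 to 6.53 and 5.0 to 5.40). Neither step passed at 2000 or 5000 UMIs per cell or without thinning. Oocytes and zygotes came from runs 1, 2 and 3, and within each run their NIC share of multi-exon UMIs was 5.37%, 5.20% and 5.50%, above the mean of the later embryos. The run of the later embryos was not analysed here, so a part of run in the stage difference was not tested. Oocytes and zygotes are the deepest cells, isoforms entered the table by a minimum of 5 cells, and the part of depth in that choice was not tested.

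Intron-retaining and exon-skipping NIC isoforms went opposite ways. Intron-retaining isoforms held 0.584% ± 0.063 of multi-exon UMIs in oocytes and zygotes and 0.851% ± 0.332 in later embryos (permutation test, p = 2.0e-05), while exon-skipping isoforms held 1.58% ± 0.10 and 1.20% ± 0.41 (p = 0.00036). Among NIC UMIs the intron-retaining share was 10.9% ± 1.4 and 22.2% ± 10.3 (permutation test, p = 2.0e-05, not among the 5 measures adjusted), and of the 6 steps it was higher at zygote to E2C, E2C to L2C and 4-cell to 8-cell and lower at oocyte to zygote (exact permutation test, adjusted p = 0.0476 for each). By stage the intron-retaining share of multi-exon UMIs was 0.605% in oocytes, 0.560% in zygotes, 0.665% in E2C, 0.817% in L2C, 0.715% in 4-cell, 1.04% in 8-cell and 1.12% in 16-cell embryos. The exon-skipping share was 1.57%, 1.60%, 1.64%, 1.48%, 1.10%, 0.845% and 0.683% over the same stages. From 4-cell to 8-cell the intron-retaining share was higher (exact permutation test, p = 0.0317) and the exon-skipping share lower without overlap (p = 0.0159), but with adjustment over the 6 steps both had p = 0.0952. NIC isoforms that did neither were at 3.19% in oocytes, 3.45% in zygotes, 2.86% in E2C, 1.96% in L2C and 1.55% to 1.88% from 4-cell to 16-cell. Those with a new pairing of sites were at 1.28% in oocytes, 1.34% in L2C, 0.907% in 4-cell and 0.569% in 16-cell embryos.

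The 16-cell embryos had intron-retaining shares of 1.31%, 2.03%, 0.481% and 0.655%, so embryo 2 exceeded every other embryo and embryo 3 was below every other. Their ISM shares, given above, fall in the same order, as do the 8-cell embryos' intron-retaining shares of 1.10%, 1.27%, 0.981% and 0.787% and ISM shares of 15.3%, 16.7%, 13.0% and 9.62%. E2C embryos had the highest mean ISM share, 22.4%, with an intron-retaining share of 0.665%. The part of incomplete cDNA in the intron-retaining share was not tested. Single cells of 32-cell embryos had a median intron-retaining share of 1.59% (0.827 to 4.12), blastocyst cells 0.900% (0.610 to 3.63) and mESC 0.727% (0.606 to 0.788).

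**Figure D3:**
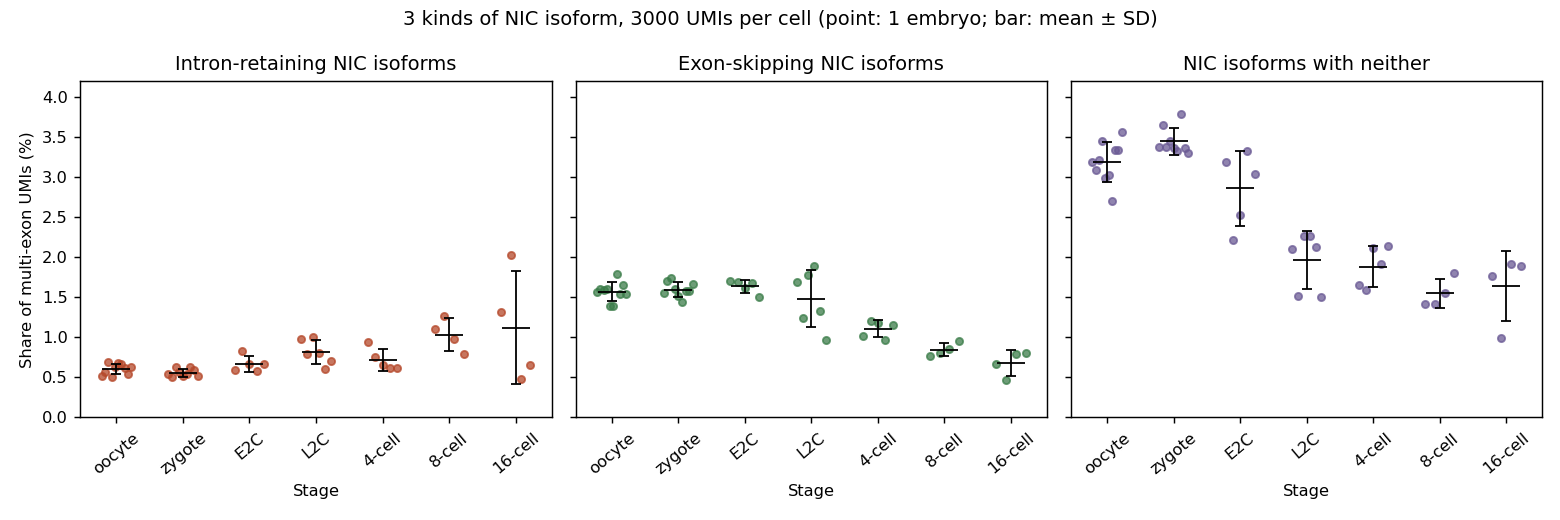
Share of multi-exon UMIs (%, y axes from 0) in intron-retaining, exon-skipping and other NIC isoforms at 3000 UMIs per cell; each point is an oocyte, zygote or embryo and the bars are mean ± SD. Means of the intron-retaining share run from 0.560% in zygotes to 1.12% in 16-cell embryos, where embryo 2 is at 2.03%, and means of the exon-skipping share from 1.64% in E2C to 0.683% in 16-cell embryos.

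Each isoform was compared between neighbouring stages with limma on log2(copies per 100,000 UMIs + 1), with a call where the log2 fold change exceeded 1 in either direction and the unadjusted p was below 0.01. A fold change on this scale understates the change of rare isoforms. Of the members, 2225 (38.1%) passed the filter of at least 1 copy in at least 4 embryos, and the others were not tested. From E2C to L2C, the time of genome activation, 267 NIC isoforms were higher and 275 lower, 24.4% of those tested. Of all isoforms tested 26% were called there, 12.9% higher and 13.1% lower. On recovered UMIs, where 222 NIC isoforms passed the filter, edgeR called 143 and DESeq2 141. The step from oocyte to zygote gave 22 higher and 7 lower (1.3%), while 1.48% of all isoforms were called, 1.16% higher and 0.32% lower. The NIC isoforms called there numbered 87 with a pseudocount of 0.5, 16 with run as a term and 11 by edgeR. Zygote to E2C gave 29 higher and 63 lower (4.13%), beside 5.18% of all isoforms, 2.23% higher and 2.94% lower. L2C to 4-cell gave 46 and 45 (4.09%), beside 4.29% of all isoforms, 2.61% higher and 1.68% lower. The step from 4-cell to 8-cell gave 87 higher and 84 lower (7.69%, against 7.93% of all isoforms), and 8-cell to 16-cell 23 and 24 (2.11%), beside 1.97% of all isoforms, 1.05% higher and 0.921% lower. At every step the percent of NIC isoforms called was near that of all isoforms. Values of an embryo are means over its cells, so they do not separate the number of cells with an isoform from its level per cell.

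The kinds split at the step from 4-cell to 8-cell. Of 390 intron-retaining isoforms tested, 54 (13.8%) were higher and 10 (2.56%) lower in 8-cell embryos, while over all isoforms 3.63% were higher and 4.3% lower. Exon-skipping isoforms had 13 higher and 25 lower of 862, and those that did neither 21 higher and 49 lower of 1001. FSM isoforms of the genes that have an intron-retaining member had 91 higher and 75 lower of 1242. Leaving out any 1 embryo of these stages gave 39 to 57 intron-retaining isoforms higher and 9 to 16 lower, and edgeR and DESeq2 on the recovered UMIs called 17 and 12 higher and 0 lower. From 8-cell to 16-cell 13 (3.33%) were higher and 7 (1.79%) lower, beside 1.05% and 0.921% of all isoforms. From E2C to L2C 58 intron-retaining isoforms (14.9%) were higher and 41 (10.5%) lower by limma, beside 12.9% and 13.1% of all isoforms. There edgeR gave 12 higher and 21 lower, so the direction of that split differs between the tests. The highest stage mean fell at 16-cell for 22.8% of the intron-retaining isoforms tested, at oocyte for 21.1% of the exon-skipping ones and at oocyte for 19.3% of all NIC isoforms tested, where 14.4% of FSM, 15.7% of ISM and 23.8% of NNC isoforms peaked.

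**Figure D4:**
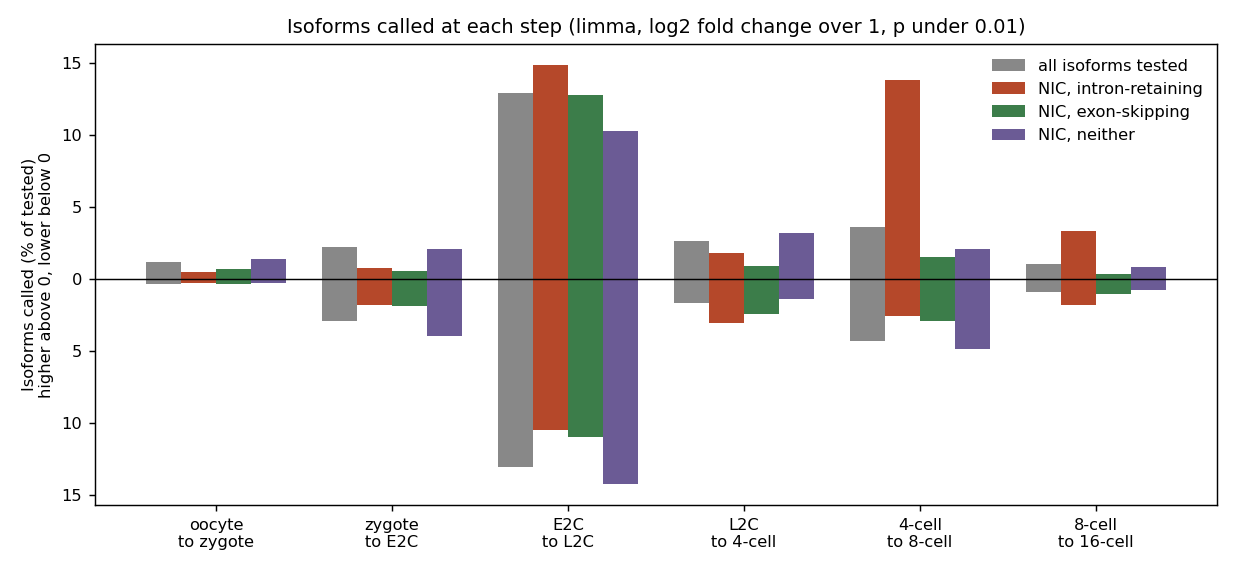
Percent of tested isoforms called higher (above 0) or lower (below 0) at each of 6 steps, for all isoforms tested (grey), intron-retaining (red), exon-skipping (green) and other (purple) NIC isoforms. At 4-cell to 8-cell 13.8% of intron-retaining isoforms are higher, against 3.63% of all isoforms.

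Intron retention was frequent among NIC isoforms of ribosomal protein genes. The list held 93 genes, of which 70 had a NIC isoform (176 isoforms), and 103 of the 176 (58.5%) retained an intron, against 774 of 5663 (13.7%) in other genes. Of the 53 tested, 17 rose and 0 fell from E2C to L2C (12.9% and 13.1% of all isoforms), and 21 rose and 1 fell from 4-cell to 8-cell (3.63% and 4.3% of all). The same genes' FSM isoforms also rose: 137 rose and 1 fell of 271 from E2C to L2C, and 51 rose and 1 fell from 4-cell to 8-cell. Outside these genes, 33 of 337 intron-retaining isoforms were higher and 9 lower from 4-cell to 8-cell. The sum of the intron-retaining ribosomal isoforms was 14.2 ± 4.7 copies per 100,000 in oocytes, 140 ± 34 in L2C, 154 ± 31 in 4-cell, 350 ± 76 in 8-cell and 400 ± 277 in 16-cell embryos (SD). As a percent of all copies of these genes it was 1.12% ± 0.21 in oocytes, 1.73% ± 0.67 in E2C, 1.83% ± 0.63 in L2C, 1.39% ± 0.36 in 4-cell, 1.85% ± 0.43 in 8-cell and 1.86% ± 0.84 in 16-cell embryos, so the copies rose by stage while the mean percent of the genes' copies stayed below 2. In other genes the percent was 0.584% ± 0.044 in oocytes, 0.627% ± 0.108 in 4-cell and 0.846% ± 0.158 in 8-cell embryos.

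Rpl6, of the large ribosomal subunit, has PB.59045.49 (chr5:121204543-121208983, + strand), which keeps its first intron of 853 bases. It was at 14.6, 6.56, 10.8, 9.08 and 7.72 copies per 100,000 in 4-cell embryos and at 33.6, 36.4, 45.8 and 27.1 in 8-cell embryos, without overlap (log2 fold change 1.77, SE 0.51, adjusted p = 0.02), and held 8.16% ± 2.5 and 14.8% ± 1.9 of the copies of the gene. Rps24 PB.22851.47 (chr14:24490749-24495860) retains nothing and differs at the first junction. It was at 0 in all 5 E2C embryos and at 8.08, 16.9, 10.1, 11.2, 13.4 and 30.0 copies in L2C embryos (log2 fold change 3.97, SE 0.40, adjusted p = 3.4e-12), and its share of the gene went from 0% to 9.58%, which passed the switch test described below.

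Outside the ribosome the intron-retaining isoforms that rose most from 4-cell to 8-cell were in Mylpf and Hspa8. Mylpf encodes a fast-muscle myosin light chain, and PB.69347.21 (chr7:127212625-127214296, + strand) keeps an intron of 211 bases. Its 4-cell embryos were at 5.13, 0, 1.79, 0.696 and 0.690 copies and its 8-cell embryos at 37.2, 31.9, 29.8 and 29.0, without overlap (log2 fold change 4.01, SE 0.44, adjusted p = 2.5e-09), while its share of the gene was 42.8% ± 19 and 48.2% ± 9.5. Hspa8 encodes the constitutive Hsc70 chaperone, and PB.75373.287 (chr9:40803995-40805201) has 2 exons, starts inside the gene and keeps the intron of 99 bases whose edge is printed above. It was at 7.07, 0, 0, 2.05 and 0.684 copies in 4-cell embryos and 49.2, 31.7, 20.5 and 20.2 in 8-cell embryos, again without overlap (log2 fold change 3.87, SE 0.61, adjusted p = 1.1e-05). In 16-cell embryos it was at 62.3, 98.6, 16.1 and 14.6, highest in embryo 2, and it was at 0 in all 5 mESC. The intron-retaining isoform with the highest mean over stages went the other way: Hirip3 PB.69316.117 (chr7:126863870-126865194, + strand), of a gene for a HIRA-interacting protein, was at 28.3, 37.6, 30.2, 33.6 and 41.9 copies in E2C and 16.2, 1.93, 2.31, 3.74, 0 and 0 in L2C embryos (log2 fold change -3.85, SE 0.50, adjusted p = 6.3e-09). The retained intron there has 69 bases. Omt2a PB.76996.9, of an oocyte maturation gene, fell from 1.82 to 32.3 copies in L2C to 0 to 1.47 in 4-cell embryos (log2 fold change -2.29, SE 0.51, adjusted p = 0.0055), and made up 2.39% of the gene in L2C embryos.

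Of the 10 NIC isoforms with the highest mean over stages, 5 (E330034G19Rik, Med27, Hpf1, Tesc and Uchl3) had higher means at each stage from oocyte to E2C than at any stage from L2C to 16-cell. E330034G19Rik PB.22845.15 (chr14:24292984-24309981, + strand, 7 exons, 1614 bases) is of an uncharacterised gene. It was at 405 to 731 copies per 100,000 in oocytes (median 637), 573 to 769 in zygotes (median 648), and 550, 383, 428, 581 and 615 in E2C embryos. L2C embryos were at 80.8, 5.93, 10.5, 35.7, 17.4 and 17.1, and the groups did not overlap (log2 fold change -4.88, SE 0.50, adjusted p = 6.6e-12). It held 58.7% to 75.9% of its gene at every stage mean, so the isoform fell with the gene. After L2C it stayed uneven between embryos: the 4-cell embryos were at 143, 3.28, 25.8, 63.8 and 52.6 and the 16-cell embryos at 135, 10.3, 80.6 and 46.9. The oocyte marker sum was 350 copies in 4-cell embryo 1 and 367 in 16-cell embryo 1, the highest of each stage, and 15.4 in 16-cell embryo 2. Cells of mESC, a cultured line, had sums of 87.4 to 184, and cells of 32-cell embryos 6.29 to 52.9. The source of these marker counts, and the part of leftover oocyte RNA in the isoform's levels, were not tested.

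Med27 PB.40936.41 (chr2:29377606-29524792, + strand) differs from Med27-201 at its first junction. It was at 127 to 237 copies in oocytes (median 180), at 95.3, 58.5, 68.2, 86.9 and 80.4 in E2C and at 0, 0.965, 0, 8.12, 3.22 and 2.89 in L2C embryos (log2 fold change -4.84, SE 0.48, adjusted p = 3.2e-12). Unlike E330034G19Rik, it also lost its place within the gene, from 59.1% in E2C to 11.8% in L2C (switch test, gene-level adjusted p = 0.0015). Hpf1 PB.71683.4 (chr8:60890331-60907584, + strand) is of the gene for a PARP1 cofactor in the DNA damage response. It joins the first exon past 4 exons by the junction printed above. By its junctions the isoform differs from a vM21 transcript that joins the same donor past 5 exons only by keeping the last of these. It was at 65.4, 108, 88.7, 63.5 and 104 copies in E2C and 8.08, 4.59, 18.6, 11.7, 3.07 and 8.34 in L2C embryos (log2 fold change -3.23, SE 0.44, adjusted p = 1.8e-08), and kept a share of 14.0% ± 2.4 and 17.4% ± 8.1 of the gene. Gm28784 PB.387.3 (chr1:17168304-17173121, + strand), a predicted gene whose NIC isoform skips 1 exon, was at 53.7, 49.9, 39.8, 32.9 and 57.8 copies in E2C and 0, 0.965, 5.34, 6.86, 3.07 and 1.07 in L2C embryos (log2 fold change -3.76, SE 0.47, adjusted p = 3.1e-09). Tesc PB.58918.53, Uchl3 PB.24983.2 and Ahsa1 PB.17722.19, of genes for a calcium-binding protein, a ubiquitin hydrolase and an Hsp90 co-chaperone, also fell at this step, by 1.97, 1.64 and 2.32 on the log2 scale. Ahsa1 PB.17722.19 is 1 of the 84 members whose chain is in vM21.

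**Figure D5:**
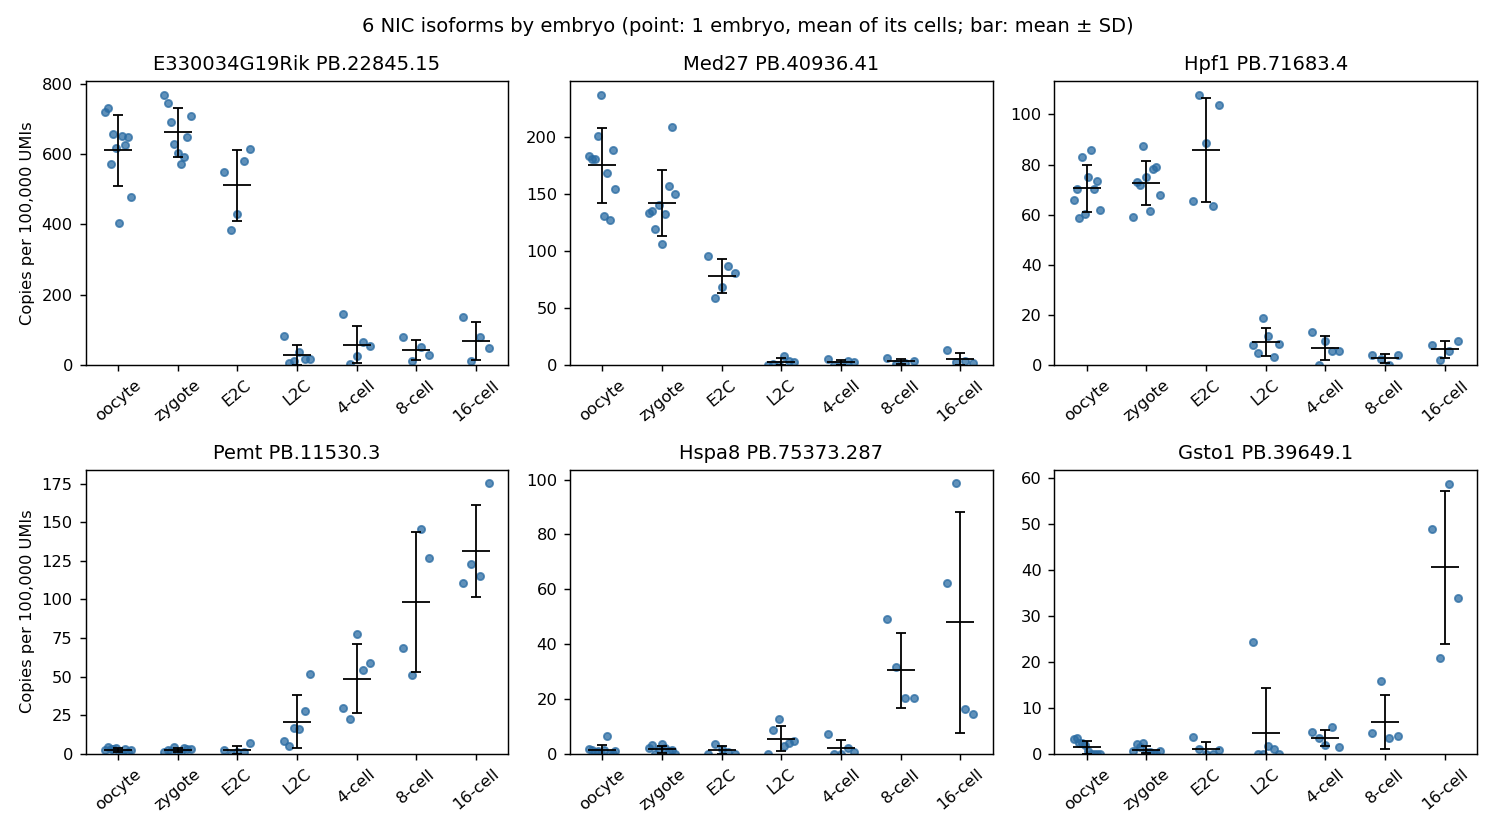
Copies per 100,000 UMIs (linear y axes from 0) of 6 NIC isoforms by stage; each point is an oocyte, zygote or embryo (mean of its cells) and the bars are mean ± SD. E330034G19Rik, Med27 and Hpf1 isoforms are high from oocyte to E2C and low from L2C, while Pemt, Hspa8 and Gsto1 isoforms are highest in 16-cell embryos.

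The abundant NIC isoforms of Oaz1 share a single difference from the annotation. Oaz1 encodes an antizyme of polyamine synthesis, and its mRNA is known for a programmed ribosomal frameshift. The annotated Oaz1-201 is drawn with a gap of 4 bases (chr10:80828292-80828295), and both isoforms read through it. Across all members, 12 isoforms in 2 genes differed from the closest vM21 transcript only by such a gap of at most 20 bases. PB.7836.1 (chr10:80826381-80829294, + strand) was at 148 to 302 copies in oocytes (median 186), 89.4 to 263 in zygotes (median 176) and 73.1, 65.9, 34.7, 87.6 and 73.7 in E2C embryos (log2 fold change from zygote -1.22, SE 0.27, adjusted p = 0.0018). PB.7836.6 (chr10:80826681-80829190) starts further downstream and was at 10.5, 6.38, 9.11, 6.86 and 9.20 copies in E2C and 40.4, 55.7, 62.3, 74.6, 72.8 and 75.7 in L2C embryos, without overlap (log2 fold change 2.83, SE 0.42, adjusted p = 1.9e-07). Its share of the gene was 9.40% ± 4.5 in E2C and 30.6% ± 9.8 in L2C embryos.

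Some abundant NIC isoforms were embryonic or steady. Pemt PB.11530.3 (chr11:59970612-60040432, - strand), of the gene for phosphatidylethanolamine N-methyltransferase, differs from Pemt-201 at its first junction. It was at 2.43, 0, 0.728, 0.703 and 6.69 copies in E2C, 8.08, 4.96, 16.3, 15.9, 27.7 and 51.7 in L2C and 111, 123, 116 and 175 in 16-cell embryos (E2C to L2C, log2 fold change 3.0, SE 0.56, adjusted p = 1.7e-05), and was at most 9.96 in mESC. Gsto1 PB.39649.1, of a glutathione transferase gene, was at 4.55, 15.8, 3.31 and 3.80 copies in 8-cell and 48.8, 20.7, 58.5 and 33.8 in 16-cell embryos, without overlap (log2 fold change 2.52, SE 0.53, adjusted p = 0.0054). Its chain is in vM21, as is that of Psmb2 PB.53498.64, a proteasome subunit isoform at 23.2 ± 13.8 copies in oocytes and 75.4 ± 18.5 in 16-cell embryos that passed at no step. Mpc1 PB.31638.6 (chr17:8283677-8297675, + strand), of the mitochondrial pyruvate carrier, skips 1 exon by the new pairing printed above. It held 91.0% ± 1.8 of its gene in oocytes, 76.0% ± 9.4 in L2C and 86.5% ± 5.6 in 16-cell embryos, with stage means between 33.0 and 52.4 copies and no step called.

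Among the other members named by rule, those that fell from zygote to E2C were Dnmt1 PB.74767.154 and Itpr2 PB.64758.11. Dnmt1 encodes the maintenance DNA methyltransferase, and its isoform was at 2.34 to 31.6 copies in zygotes (median 9.40) and 0, 0, 0.728, 0 and 0.834 in E2C embryos (log2 fold change -3.14, SE 0.43, adjusted p = 3e-07). Itpr2, an IP3 receptor gene, had an isoform at 3.83 to 46.9 copies in zygotes (median 14.0) and 1.75, 1.86, 1.73, 0.703 and 0 in E2C embryos (log2 fold change -2.92, SE 0.43, adjusted p = 1.7e-06). Both had been higher in zygotes than in oocytes, by 1.62 (adjusted p = 0.00024) and 1.01 (adjusted p = 0.037) on the log2 scale. Itpr2 PB.64758.11 was uneven, with oocyte 6 at 36.7 and zygotes 5 and 6 at 35.4 and 46.9 copies, while the other zygotes were at 3.83 to 15.7. Oocyte 6 and zygotes 5 and 6 were the 1 oocyte and 2 zygotes of run 2, so the high values go with the run. The fit behind these fold changes held no term for run. Neither Dnmt1 PB.74767.154 nor Itpr2 PB.64758.11 had a UMI in any cell from L2C to mESC. Tipin PB.76326.20, of a replication fork protection gene, was at 0.809, 0, 1.46, 0 and 0 copies in E2C and 16.2, 14.5, 10.5, 17.8, 12.6 and 12.6 in L2C embryos (log2 fold change 3.39, SE 0.38, adjusted p = 9.8e-11). Its intron begins 5 bases before that of Tipin-201. Nlrp9c PB.66058.40, of an oocyte NLRP gene, was at 11 to 32.4 copies in oocytes, at 80.6, 46.5, 56.4, 63.2 and 62.0 in E2C and at 8.08, 0, 1.07, 2.65, 2.00 and 0 in L2C embryos (log2 fold change -4.95, SE 0.51, adjusted p = 1.1e-11). The NLRP9 genes are close copies of each other, so reads may be split between them.

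Other members fell from L2C to 4-cell or from 4-cell to 8-cell. Atp13a3 PB.29754.319, of a polyamine transporter gene, was at 0 in E2C, at 8.08, 12.8, 3.20, 9.68, 7.22 and 4.29 copies in L2C and at 2.51, 0, 1.84, 0 and 1.38 in 4-cell embryos (log2 fold change -2.06, SE 0.36, adjusted p = 0.00037). Ube2a PB.79478.3, of a ubiquitin-conjugating enzyme, was at 7.20, 3.28, 11, 1.38 and 4.26 copies in 4-cell and 0.456, 0, 0 and 0 in 8-cell embryos (log2 fold change -2.08, SE 0.40, adjusted p = 0.00027). Gm36899 PB.25980.1, of a predicted gene, was at 1.19, 25.7, 7.59, 0.681 and 1.37 copies in 4-cell and at 0 in 8-cell embryos (log2 fold change -1.63, SE 0.40, adjusted p = 0.0043). From 8-cell to 16-cell, Krtcap2 PB.48032.15 and Rpl17 PB.37165.58 met the call limits with log2 fold changes of 1.11 and -1.07, but not the adjusted p (0.13 and 0.078), and both calls were lost without 8-cell embryo 3 or 4.

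The gene lists are read beside all isoforms tested, of which 12.9% were higher and 13.1% lower from E2C to L2C, 2.61% and 1.68% from L2C to 4-cell and 3.63% and 4.3% from 4-cell to 8-cell. Oocyte and maternal effect genes moved in 1 direction at genome activation. Of their 97 NIC isoforms (24 of 41 genes) 49 were tested, and from E2C to L2C 0 rose and 17 fell, among them isoforms of Zar1, Btg4, Tcl1, Oog2, Obox5 and the NLRP9 genes. The list was made of genes known to be maternal. NIC isoforms of Zar1 and H1foo were already lower in E2C than in zygotes, by 1.69 and 2.82 on the log2 scale, and 3 isoforms of Nlrp9b and Nlrp9c were higher. The 93 ribosomal protein genes had 25 NIC isoforms rising and 0 falling from E2C to L2C, and 24 rising and 2 falling from 4-cell to 8-cell, of 82 tested. Among hnRNPs and other RNA-binding splicing regulators, 15 of 43 genes had 82 NIC isoforms and 31 were tested. From E2C to L2C 3 rose, near the share of all isoforms (2 of Hnrnpf and 1 of Rbm10), 3 rose and 1 fell from L2C to 4-cell, and 4 fell from 4-cell to 8-cell (Hnrnpf, Hnrnpdl, Celf1 and Rbm10). Among SR proteins and their regulators, splicing activators and their kinases, 10 of 27 genes had 30 NIC isoforms, 14 of them in Srsf7, and of 10 tested Clk4 and Srsf7 isoforms rose from E2C to L2C by 1.02 and 1.41. The same Srsf7 isoform, PB.34627.37, had been called lower at the step before, from zygote to E2C (log2 fold change -1.12). Of spindle and cell cycle genes 17 isoforms were tested, and 2 of Birc5 rose from oocyte to zygote (1.16% of all isoforms did), while 2 (Aurkc and Birc5) fell from E2C to L2C, near the share of all isoforms. Of mRNA decay genes 8 isoforms were tested, and from E2C to L2C 1 rose and 1 fell. Their median log2 fold change at that step was -0.41. Pabpn1 PB.23853.19, of a nuclear poly(A)-binding protein gene, rose by 3.11 and an isoform of Btg4 fell. From 4-cell to 8-cell Pabpn1 PB.23853.19 fell by 1.81. The 25 2-cell burst genes, such as Zscan4c, had 0 NIC isoforms, and 12 of them were in the table. Ncl, Cnot7, Srpk1 and Mrps6 had 1 NIC isoform each and Rps19 had 5, while Cfdp1, Dnajc3, Sf3b2, Hsp90aa1, Plp2 and Ss18l2 had none.

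Isoform switches, changes in the share of an isoform within its gene, were tested with limma on arcsine square root shares. A call needed the gene (Simes method) to pass an adjusted p of 0.01 and the isoform one of 0.05. From E2C to L2C 36 NIC isoforms of 33 genes switched, 15 up and 21 down, of 1590 tested (2.26%, against 2.88% of all isoforms). From zygote to E2C 5 of 2690 switched, 3 up and 2 down (0.186%, against 0.363% of all). The other 4 steps gave 0, against 0.00256%, 0.0197%, 0.021% and 0% of all isoforms, with 184, 107, 113 and 84 NIC isoforms at an unadjusted p under 0.05. In simulated data the 2 most abundant isoforms of 200 genes were exchanged. The switch test found 57.5%, 40.5%, 41.5% and 38.5% of these genes at the same 4 steps. The 0 calls therefore do not show that switches were absent. Lrrc41 PB.52885.14 (chr4:116075080-116083066, + strand), of a leucine-rich repeat gene, went from a minor to the main isoform of its gene. It was at 0, 0.929, 0, 0 and 0 copies in E2C and at 8.08, 5.19, 23.5, 5.77, 10.8 and 13.4 in L2C embryos, and its share of the gene was 3.64% and 97.6% (gene-level adjusted p = 5e-05). The 8.08 copies of L2C embryo 1 are 1 UMI. Sfr1 PB.39642.112, of a recombination repair gene, went from 13.4% of its gene in zygotes to 0.738% in E2C (gene-level adjusted p = 0.00027). The switches of 1300002E11Rik PB.29513.8 (0% in zygotes, 10.2% in E2C) and Gm28578 PB.39476.9 (100% in E2C, 0% in L2C) rest on 7 and 30 UMIs in all.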

How the data were processed

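Single-cell full-length cDNA of mouse oocytes, preimplantation embryos and mESC was sequenced by the authors, mapped to mm10 with minimap2, collapsed with cDNA_Cupcake and classified with SQANTI3, and isoforms in fewer than 5 cells were removed. The authors deposited the isoform table of batches 1 to 3 as copies per 100,000 UMIs of a cell, a value of the CPM kind. Divided by the value of 1 UMI in its cell, 100% of the non-zero entries came out whole (tolerance 0.1), and these recovered UMIs were used for depth, thinning (5 draws) and count models. Cell barcodes are not in the tables used here. The table of batch 4 was not analysed here, since its column names match no label, and the planned comparison of intact and split oocytes was not made. One gene that the study names is not reported here.

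The members, gene lists and named isoforms were chosen with earlier results of these data known. Named were the 10 NIC isoforms with the highest mean over stages, up to 2 rising and 2 falling at each step without overlap and with at least 5 copies, up to 2 switches a step, the 5 genes with the most NIC isoforms, those holding over 50% of their gene, and genes the study names for isoforms. Hirip3, Rpl6, Pabpn1 and others outside that rule were chosen after their values were seen.

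The oocyte, zygote or embryo was the replicate, and its cells were averaged. The run of oocytes and zygotes was read from a cell list of the study and used as a batch only. Shares were compared by two-sided permutation tests, exact between neighbouring stages with Benjamini-Hochberg adjustment over 6 steps. Isoforms were tested across all 29409 that passed the filter with limma 3.58.1 (trend, array weights; pseudocount 1) in R 4.3.3, with adjustment over all of them. edgeR 4.0.16 and DESeq2 1.42.0 on recovered UMIs were alternatives. On simulated data limma found 62.0% (E2C to L2C) to 98.0% (oocyte to zygote) of 200 isoforms changed 4-fold. These isoforms had a mean of at least 5 copies, so the recovery of rarer ones was not tested. Of the unchanged isoforms, 0.0528% (oocyte to zygote) to 1.32% (4-cell to 8-cell) were called. Intervals between stages cover the spread of these embryos, which nothing says came from separate females. Junctions and sequences were read from GENCODE vM21 (GRCm38), a release near the authors' annotation. A genome sequence was not used here.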

Additional observations from a re-analysis of the deposited data

Results flagged for a closer look

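The number of NIC isoforms detected per cell at 3000 UMIs was lowest in oocyte 4, at 78.2, while the next oocyte was at 92.8. The gap was 0.598 of the range of the 10 oocytes, above the limit of 0.466 used for a group of 10. Groups of 4 to 10 embryos were searched in 35 cases, and chance alone marks about 1 in 20.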

How the results depend on the processing

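Over 139 alternatives for the 5 comparisons of oocytes and zygotes with later embryos, each kept its direction and side of the threshold. The alternatives varied the UMIs per cell, the minimum of cells and the classes in the total, or left out members after seeing the data. Others left out each embryo in turn at E2C and at the stages after L2C. No oocyte, zygote or L2C embryo was left out, and run was not among the alternatives. The difference in NIC share ranged from -1.84 to -0.851 percentage points, in share within host genes from -1.91 to -0.703, in intron-retaining share from 0.216 to 0.344 and in exon-skipping share from -0.527 to -0.353. For 15 isoforms named for their change at a step, 173 of 180 alternatives kept the call and 7 lost it, and the calls of the other named isoforms were not run under each alternative.

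Single steps were less stable. The number of the 6 steps that passed for the NIC share was 0, and 2 without thinning, 3 with isoforms in at least 20 cells and 2 with NIC and FSM isoforms only. For isoforms detected it was 0, and 1 without thinning. For the share within host genes it was 2, and 0 at 2000 or 5000 UMIs, without thinning or without the most abundant NIC isoform, 1 with NIC and FSM isoforms only, and 0 to 2 with an embryo left out. For the intron-retaining share it was 0, and 2 without its 10 most abundant isoforms, and for the exon-skipping share 0, and 1 with isoforms in at least 20 cells. Signs turned in steps that did not pass. From 8-cell to 16-cell the NIC share differed by 0.0261, and by -0.00886 without the most abundant member, -0.0287 without chains in vM21, -0.0273 without Hspa8, -0.0424 without the 10 intron-retaining isoforms, -0.0194 without 8-cell embryo 1 and -0.0719 without 16-cell embryo 1. With 1 embryo left out it ranged from -0.0719 to 0.103, the host-gene share from -0.0625 to 0.187 and the intron-retaining share from -0.219 to 0.297. With isoforms in at least 20 cells the 4-cell to 8-cell differences were 0.0392 in NIC share and 4.95 in isoforms detected. The host-gene share differed by 0.161 from zygote to E2C with NIC and FSM isoforms only, by 0.267 from E2C to L2C without the most abundant member, and from 8-cell to 16-cell by -0.018 without the 10 intron-retaining isoforms and -0.0625 without 16-cell embryo 1. The intron-retaining share differed by -0.219 from 8-cell to 16-cell without 16-cell embryo 2, and the exon-skipping share by -0.0218 from oocyte to zygote at 5000 UMIs. The cause was not tested for any of these.

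NIC isoforms called numbered 87, 160 and 89 at oocyte to zygote, zygote to E2C and 8-cell to 16-cell with a pseudocount of 0.5, 59 and 19 at L2C to 4-cell and 8-cell to 16-cell with an adjusted p under 0.05, and 16 at oocyte to zygote with run as a term. In step order edgeR called 11, 27, 143, 15, 31 and 10 and DESeq2 10, 25, 141, 9, 24 and 4, with 222 NIC isoforms left by their filter. With 1 embryo left out the counts from zygote to E2C onward were 82 to 102, 484 to 535, 64 to 115, 134 to 208 and 48 to 73. Switches at zygote to E2C and E2C to L2C numbered 2 and 15 on untransformed shares, 8 and 19 with genes present in all embryos, and 17 and 81 by the isoform's adjusted p alone, and the last 2 settings each gave 1 at 4-cell to 8-cell. With 1 embryo left out they numbered 3 to 6 and 20 to 29, and 0 to 2 at 4-cell to 8-cell. No paired analysis was possible because the stages share no animal, and the embryo number in a name only counts embryos. The alternatives for split oocytes were not run. Depth limits the members that were too rare to test, and a level of 0 in a cell is a limit of depth.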
